A study of Mus musculus with 9 samples.

Results

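The non-muscle cytoskeleton of the mouse aorta was followed here through 9 genes: the non-muscle myosin II heavy chains Myh10, Myh9 and Myh14, the cytoplasmic actins Actb and Actg1, the intermediate filament protein Vim, the tropomyosin Tpm4, the actin crosslinker Flna and the adhesion protein Vcl. They were taken by Entrez Gene ID and symbol from the 18830 genes listed for each library. All 9 were found and all 9 passed the filter on low counts. Myh10 was included because it had the smallest p of all genes when 28-day and sham aortas were compared, and the other 8 were chosen by their function with earlier results of the same comparisons known. Their values in the 3 comparisons are therefore given as descriptions, with standard errors and without single-gene p-values. RNA of aortas from ApoE knock out mice was sequenced in 9 libraries, 3 per group. The groups were mice infused with angiotensin II (Ang II), a peptide that raises blood pressure and is used to induce abdominal aortic aneurysm, for 28 days (1000 ng/kg/min from an osmotic pump), mice given the same infusion for 14 days, and a sham control. All 3 groups carry the ApoE knock out, so every comparison is made within that genotype. The labels give no age or sex, no day for the sham aortas, and no word on pooling of animals, while the series describes the segment as suprarenal abdominal aorta; sample titles also carry the word muscle.

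Non-muscle myosin II is the motor that pulls actin filaments together in cells outside the contractile apparatus, and in smooth muscle it works beside the smooth muscle myosin Myh11. Its heavy chains come from separate genes: Myh9 encodes the IIA form, which predominates in blood and connective tissue cells, Myh10 the IIB form, which is abundant in brain, heart and embryonic smooth muscle, and Myh14 the IIC form, found mostly in epithelia and nerve tissue. The cytoplasmic actins form the filaments, tropomyosins coat them, filamin A crosslinks them and ties them to the membrane, vinculin anchors them at cell adhesions, and vimentin forms a separate filament network of mesenchymal cells and leukocytes. Filamin A and vinculin are also abundant in contractile smooth muscle, where force is passed to the matrix.

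Libraries held between 9609690 and 14923936 expected counts in total. Levels are in CPM (counts relative to the library total, scaled between libraries by TMM, the trimmed mean of M values). All 9 contractile smooth muscle markers had reads in every library, with summed levels of 2093 to 6447 CPM at 28 days, 3665 to 17050 CPM at 14 days and 9916 to 30380 CPM in sham aortas. Other tissues were also present. The 6 skeletal muscle markers summed to 13330, 4438 and 91.8 CPM in 28-day replicates 1 to 3, to 16.9, 3.96 and 6.92 CPM in 14-day replicates 1 to 3, and to 43.5, 3.86 and 6.32 CPM in sham replicates 1 to 3. Of these 6, Myh4 was at 0 in every 14-day and sham library. The 7 nerve and Schwann cell markers summed to 84.3, 2335 and 1115 CPM at 28 days, to 2156, 39.0 and 249 CPM at 14 days, and to 122, 5062 and 39.0 CPM in sham aortas, in the same order of replicates. Dbh and Th were at 0 in sham replicate 3. The 8 macrophage and monocyte markers, all with reads in every library, summed to 2135 to 3550 CPM at 28 days, 2216 to 12980 CPM at 14 days, with the top value in replicate 2, and 347 to 1532 CPM in sham. Apoe itself was read in all 9 libraries, at 22.5 to 648 CPM. The part these tissues play in the values below was not tested, except where a value without the libraries concerned is given.

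Myh10 was lower in Ang II aortas at both times, and its level was nearly the same in the 3 libraries of the late group. It had 74.2, 67.3 and 65.8 CPM at 28 days, 113, 82.3 and 102 CPM at 14 days, and 275, 185 and 285 CPM in sham aortas (Entrez 77579, ENSMUSG00000020900, GRCm38.p6 chromosome 11, 68691915 to 68816626). No 28-day library reached the lowest 14-day library, and no 14-day library reached the lowest sham library, sham replicate 2. The means were 69.1 ± 4.51 CPM at 28 days, 99.0 ± 15.6 CPM at 14 days and 248 ± 55.1 CPM in sham (SD, n = 3 each). The log2 fold change was -1.84 ± 0.22 for 28 days against sham (SE; 3.59-fold lower), -1.33 ± 0.21 for 14 days against sham (2.51-fold lower), and -0.52 ± 0.21 for 28 days against 14 days (1.43-fold lower). Both comparisons with sham rest on the same 3 sham libraries. In whole tissue, fewer cells of a type and less RNA per cell cannot be told apart, for this gene and for all that follow.

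Myh9 had a higher mean than sham at both times, and its highest mean at 14 days. It had 440, 432 and 357 CPM at 28 days, 473, 658 and 631 CPM at 14 days, and 406, 250 and 339 CPM in sham aortas (Entrez 17886, chromosome 15, 77760585 to 77842175). All 14-day libraries lay above every library of the other groups, while the 28-day and sham libraries overlapped. In log2 terms it was 0.31 ± 0.24 for 28 days against sham, 0.83 ± 0.24 for 14 days against sham and -0.52 ± 0.24 for 28 days against 14 days. The mean was 587 ± 100 CPM at 14 days, against 331 ± 78.3 CPM in sham (SD, n = 3 each). The macrophage marker sums given above did not overlap with sham at 14 days or at 28 days, while Myh9 overlapped with sham at 28 days. The part of macrophages in Myh9 was not tested. The 28-day value against sham was 0.47 without sham replicate 1, 0.14 without sham replicate 2, 0.11 without the 28-day libraries rich in skeletal muscle (replicates 1 and 2) and 0.07 without the most nerve-rich library of each group.

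Myh14 was the scarcest of the 9 genes. It had 19.4, 29.5 and 18.7 CPM at 28 days, 22.6, 1.51 and 8.49 CPM at 14 days, and 8.95, 51.8 and 15.0 CPM in sham aortas (Entrez 71960, chromosome 7, 44605803 to 44670872). The highest value belonged to sham replicate 2, which also had the highest sum of nerve markers. The lowest belonged to 14-day replicate 2, with a nerve sum of 39.0 CPM. Sham replicate 3 had the same nerve sum to this precision, 39.0 CPM, but 15.0 CPM of Myh14. The part of nerve tissue in Myh14 was not tested. The groups overlapped in all 3 comparisons. The log2 fold change for 28 days against sham was -0.17 ± 0.91, and it was 0.62 without the most nerve-rich library of each group (sham replicate 2, 14-day replicate 1 and 28-day replicate 2). Against sham the 14-day value was -1.22 ± 0.92, and it was -0.14 without sham replicate 2 and -2.33 without 14-day replicate 1. For 28 days against 14 days it was 1.05 ± 0.92, the 1 positive value among the 9 genes in that comparison, and it was 0.54 without 14-day replicate 2 and 2.17 without 14-day replicate 1.

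**Figure D1:**
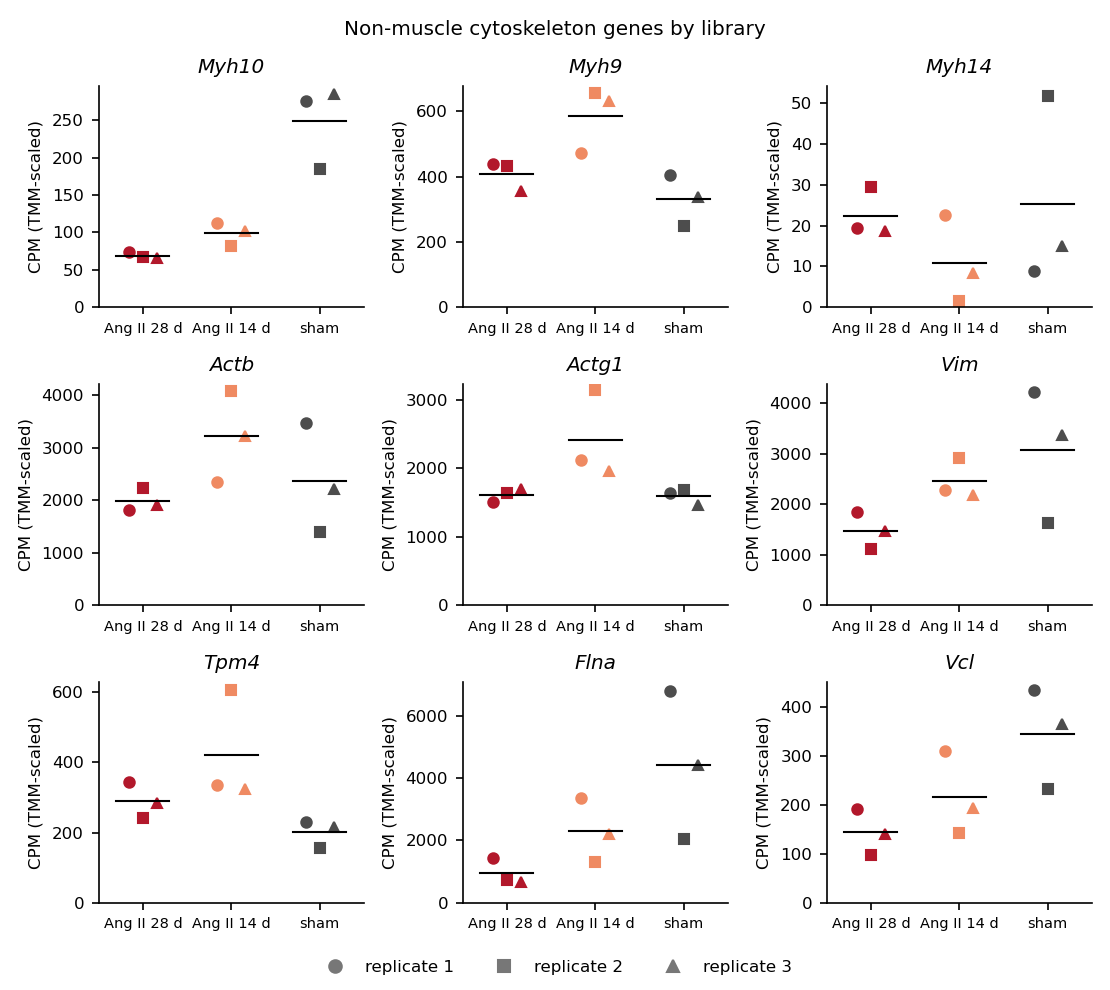
Level of each of the 9 genes in CPM (y axes start at 0) in 28-day, 14-day and sham aortas; each point is 1 library, its shape gives the replicate number and the bar is the group mean. Myh10, Flna and Vcl have their lowest means at 28 days, and Myh9, Actb, Actg1 and Tpm4 their highest at 14 days.

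Set against each other per length of exon, the heavy chains changed their proportions. CPM were divided by the kilobases of annotated exon of each gene (10458 bases for Myh10, 12928 for Myh9 and 7273 for Myh14), for an approximate comparison between genes. These lengths take in every annotated exon, so levels and shares between genes depend on that choice. On this scale Myh10 and Myh9 had nearly equal levels in sham aortas, at 23.7 ± 5.27 and 25.6 ± 6.05 CPM per kb (SD, n = 3). In CPM, without the division, their sham means were 248 and 331. At 28 days the levels were 6.61 ± 0.43 CPM per kb for Myh10 and 31.7 ± 3.53 for Myh9, and at 14 days 9.47 ± 1.49 and 45.4 ± 7.74. Of the summed level of the 3 heavy chains, Myh10 made up 16.2%, 14.7% and 17.2% at 28 days, 21.4%, 13.4% and 16.3% at 14 days, and 44.6%, 40.1% and 49.1% in sham aortas. The lowest sham share was thus well above the highest Ang II share, that of 14-day replicate 1. These shares are ratios within a library, so the scaling between libraries does not enter them. Myh10 was included for its p at 28 days against sham, so its lower share restates that choice and nothing further is read from it. The sum itself was 41.4 ± 4.25 CPM per kb at 28 days, 56.4 ± 5.12 at 14 days and 52.9 ± 7.75 in sham, with overlapping groups at 14 days and in sham.

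**Figure D2:**
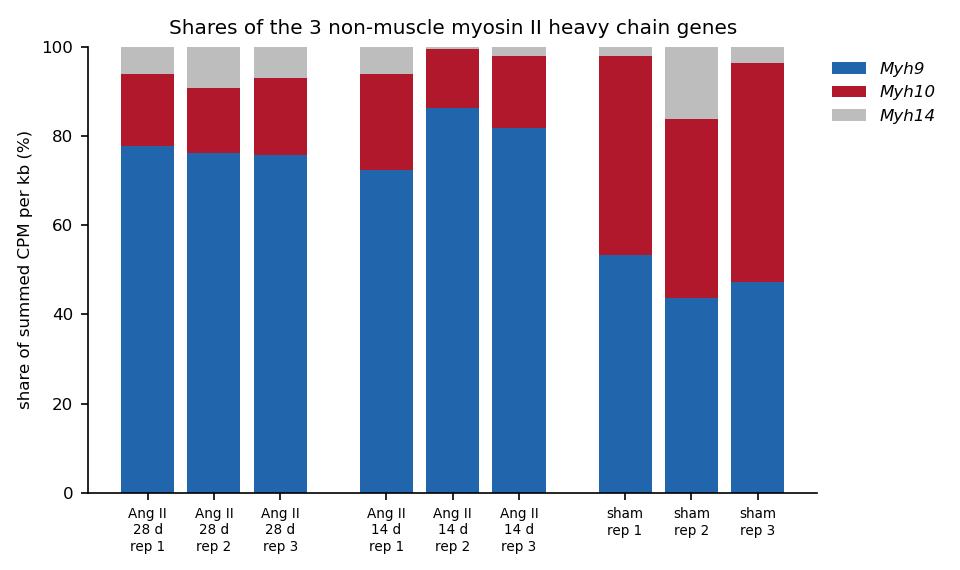
Share of Myh9, Myh10 and Myh14 in their summed CPM per kilobase (percent, 1 bar per library) in 28-day, 14-day and sham aortas. Myh10 takes 13.4% to 21.4% in the 6 Ang II libraries and 40.1% to 49.1% in the 3 sham libraries. Myh10 was included for its p at 28 days against sham, so the shares are a description.

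The smooth muscle heavy chain Myh11 exceeded all 3 in sham aortas. With Myh11 counted in the total, the non-muscle genes made up 23.6%, 46.9% and 45.8% of the myosin II heavy chain level per kb at 28 days, 12.5%, 59.5% and 20.2% at 14 days, and 7.29%, 15.6% and 9.72% in sham. The 28-day libraries all lay above the sham libraries, and 14-day replicate 1 lay between sham replicates 2 and 3. Myh11 had 1078, 378 and 329 CPM at 28 days, 2679, 304 and 1795 CPM at 14 days, and 5692, 1810 and 3919 CPM in sham, with log2 fold changes of -2.68 ± 0.86 and -1.26 ± 0.82 at these times against sham (edgeR adjusted p = 0.242 and 0.394). The ratio of Myh10 to Myh11 per kb ran from 0.050 to 0.145 at 28 days, from 0.0307 to 0.197 at 14 days and from 0.0351 to 0.0742 in sham, and these ranges overlapped.

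The cytoplasmic actins were highest on average at 14 days. Actb, which encodes beta-actin, had 1810, 2232 and 1913 CPM at 28 days, 2352, 4086 and 3220 CPM at 14 days, and 3478, 1387 and 2206 CPM in sham aortas (Entrez 11461, chromosome 5, 142903115 to 142907976). The sham libraries ran from below every other library to above all but 1 of them, and the 28-day libraries all lay below the 14-day libraries. The log2 fold change was -0.25 ± 0.38 for 28 days against sham, 0.45 ± 0.38 for 14 days against sham and -0.70 ± 0.38 for 28 days against 14 days. Without sham replicate 1 the first of these was 0.14, a change of sign, and the second was 0.84. Without sham replicate 2 they were -0.52 and 0.18.

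Actg1, which encodes gamma-actin, varied less. It had 1506, 1640 and 1698 CPM at 28 days, 2117, 3150 and 1958 CPM at 14 days, and 1639, 1679 and 1467 CPM in sham aortas (Entrez 11465, chromosome 11, 120345687 to 120348495). The 28-day and sham libraries lay within the same narrow range, and every 14-day library was above it. Its log2 fold change was 0.02 ± 0.25 for 28 days against sham, 0.59 ± 0.25 for 14 days against sham and -0.58 ± 0.25 for 28 days against 14 days, and without 14-day replicate 2 the last 2 values were 0.38 and -0.33. The actin genes are close paralogs and ambiguous reads were split by estimation, so the division of reads between Actb, Actg1 and other actins is uncertain.

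Smooth muscle actin Acta2 gave the contrast to both. It had 2814, 1125 and 957 CPM at 28 days, 8322, 1992 and 6010 CPM at 14 days, and 13380, 4653 and 10310 CPM in sham, with log2 fold changes of -2.53 ± 0.70 at 28 days and -0.80 ± 0.67 at 14 days against sham (edgeR adjusted p = 0.218 and 0.512). Per kb, Actb stood to Acta2 as 0.527, 1.63 and 1.64 at 28 days, as 0.232, 1.68 and 0.439 at 14 days, and as 0.213, 0.244 and 0.176 in sham aortas. In 28-day replicates 2 and 3 and 14-day replicate 2 beta-actin thus exceeded smooth muscle actin, while in each sham aorta it was well under it.

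Tpm4, a tropomyosin gene with cytoplasmic isoforms, was higher in every Ang II library than in every sham library. It had 345, 241 and 286 CPM at 28 days, 336, 607 and 323 CPM at 14 days, and 230, 157 and 216 CPM in sham aortas (Entrez 326618, chromosome 8, 72135288 to 72153142). Log2 fold changes were 0.53 ± 0.30 for 28 days against sham, 1.07 ± 0.30 for 14 days against sham and -0.54 ± 0.30 for 28 days against 14 days. Without 14-day replicate 2, the library with the most macrophage marker reads, the second of these was 0.73 and the third -0.18. Tpm2, a tropomyosin of muscle, had 1597, 567 and 131 CPM at 28 days, 1007, 242 and 709 CPM at 14 days, and 1723, 496 and 1117 CPM in sham. Within each group the libraries stood in the same order for Tpm2, for the contractile smooth muscle sum and for the skeletal muscle sum. The part of either tissue in Tpm2 was not tested.

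Flna, which encodes filamin A, had the widest difference from sham of the 9 genes at 28 days. It had 1422, 723 and 678 CPM at 28 days, 3359, 1313 and 2196 CPM at 14 days, and 6792, 2051 and 4406 CPM in sham aortas (Entrez 192176, chromosome X, 74223461 to 74249854). All 28-day libraries lay below all sham libraries, and the 14-day libraries overlapped both groups. The log2 fold change was -2.23 ± 0.57 for 28 days against sham (4.69-fold lower), -0.95 ± 0.55 for 14 days against sham and -1.28 ± 0.55 for 28 days against 14 days. The 14-day value was -0.50 without sham replicate 1 and -1.64 without the most nerve-rich library of each group.

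Vcl, which encodes vinculin, had its group means in the same order. It had 193, 98.1 and 141 CPM at 28 days, 310, 143 and 194 CPM at 14 days, and 435, 233 and 366 CPM in sham aortas (Entrez 22330, chromosome 14, 20929383 to 21033676). The groups at 28 days and in sham did not overlap, and the 14-day libraries overlapped both. Its log2 fold change was -1.26 ± 0.39 for 28 days against sham, -0.68 ± 0.38 for 14 days against sham and -0.58 ± 0.38 for 28 days against 14 days. Without 14-day replicate 2 the second value was -0.43, and without 14-day replicate 1 the last 2 values were -1.03 and -0.23. Without the most nerve-rich library of each group they were -1.22 and -0.08.

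Filamin A tracked smooth muscle actin from library to library. Ranked by Flna, the 9 libraries stood in the same order as ranked by Acta2, from sham replicate 1 at the top to 28-day replicate 3 at the bottom. The ratio of Flna to Acta2 per kb was 0.118, 0.150 and 0.166 at 28 days, 0.0943, 0.154 and 0.0854 at 14 days, and 0.119, 0.103 and 0.0999 in sham aortas. The ratio thus lay between 0.0854 and 0.166 while Acta2 itself ran from 957 to 13380 CPM. For Vcl the ratio spread further, with 0.0183, 0.0234 and 0.0395 at 28 days, 0.00999, 0.0192 and 0.00866 at 14 days, and 0.00872, 0.0134 and 0.00952 in sham. For Myh10 it ran from 0.00554 to 0.0144 at 28 days, from 0.00286 to 0.00868 at 14 days and from 0.00432 to 0.00834 in sham. Over the 9 libraries, which share their 3 groups, the Pearson correlation of log2 CPM with Acta2 was 0.98 for Flna, 0.94 for Vcl and 0.85 for Myh10 (Spearman 1, 0.97 and 0.92). As 1 pair of libraries in which the orders differed, 14-day replicate 1 had 8322 CPM of Acta2 and 113 CPM of Myh10, while sham replicate 2 had 4653 CPM of Acta2 and 185 CPM of Myh10.

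**Figure D3:**
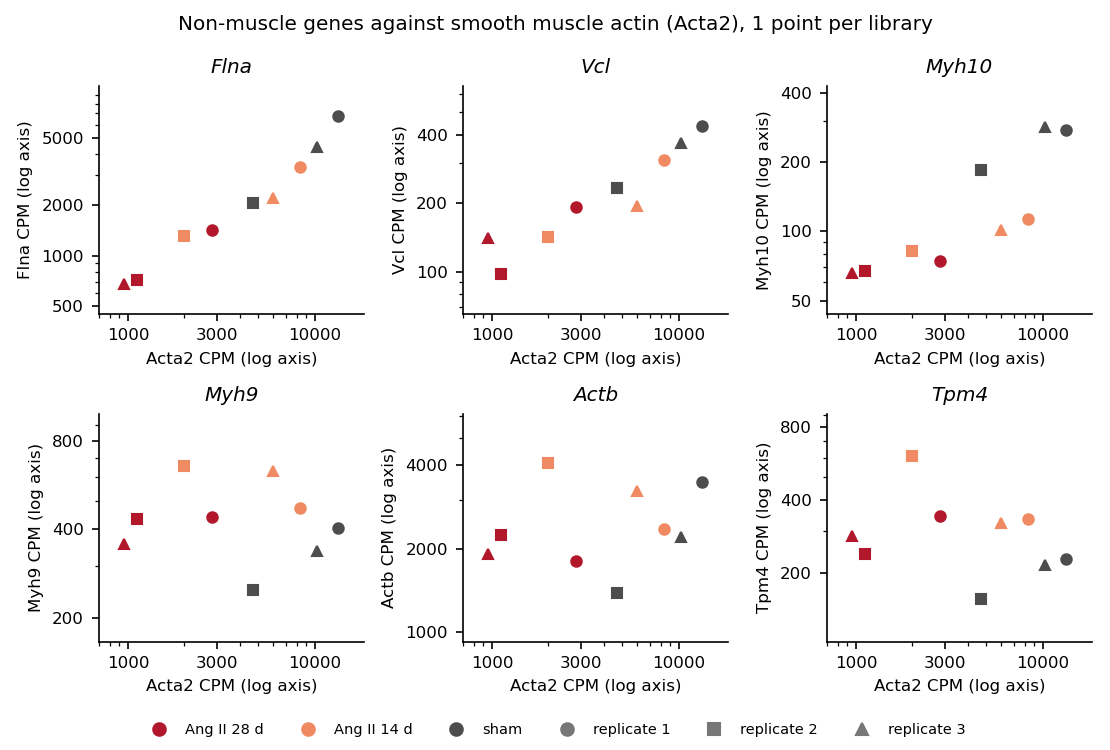
Level of 6 of the genes against Acta2, both in CPM on log axes, with 1 point per library; colour gives the group and shape the replicate number. Flna rises with Acta2 across all 9 libraries, and Vcl and Myh10 also rise with it, while the 3 sham libraries, from 185 to 285 CPM, sit above all Ang II libraries for Myh10.

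Vim, which encodes vimentin, was lowest at 28 days. It had 1840, 1115 and 1476 CPM at 28 days, 2281, 2920 and 2186 CPM at 14 days, and 4231, 1627 and 3362 CPM in sham aortas (Entrez 22352, chromosome 2, 13574311 to 13582826). The 28-day libraries all lay below the 14-day libraries, and they overlapped sham only through sham replicate 2. In log2 terms it was -1.06 ± 0.39 for 28 days against sham, -0.32 ± 0.39 for 14 days against sham and -0.74 ± 0.39 for 28 days against 14 days. Without sham replicate 2 the first 2 values were -1.36 and -0.63, and without sham replicate 1 they were -0.76 and -0.02. Desmin, the filament protein of muscle cells, had 869, 300 and 62.5 CPM at 28 days, 293, 41.9 and 253 CPM at 14 days, and 127, 120 and 96.2 CPM in sham. Skeletal muscle sums were 13330 and 4438 CPM in 28-day replicates 1 and 2, but 16.9 and 6.92 CPM in 14-day replicates 1 and 3. The part of skeletal muscle in desmin was not tested.

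Counted together, 0 of the 9 genes passed edgeR's quasi-likelihood test at an adjusted p under 0.05 in any comparison, where 0% of the 14741 genes tested passed. At an unadjusted p under 0.05, 0 members were higher and 4 were lower at 28 days against sham, where 7.96% and 5.89% of all genes were, 3 were higher and 1 was lower at 14 days against sham (13.1% and 10.4% of all genes), and 0 were higher and 2 lower at 28 days against 14 days (3.86% and 2.27%). DESeq2, an alternative count test, called 3 members lower and 0 higher at 28 days against sham (2.66% of all genes lower, 4.03% higher). It called 3 members higher and 1 lower at 14 days against sham (8.27% and 4.2% of all genes), and 0 members at 28 days against 14 days (0.608% and 0.182%). Groups without overlap were found for 1 higher and 3 lower members at 28 days against sham (12.2% and 9.46% of all genes), for 3 and 1 at 14 days against sham (12.6% and 13.5%), and for 0 and 5 at 28 days against 14 days (4.35% and 5.71%). The median log2 fold change of the 9 genes was -0.25, -0.32 and -0.58 for 28 days against sham, 14 days against sham and 28 days against 14 days, beside -0.08, -0.07 and -0.05 over all genes tested. Since these comparisons were known when the genes were chosen, nothing is read from these counts.

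**Figure D4:**
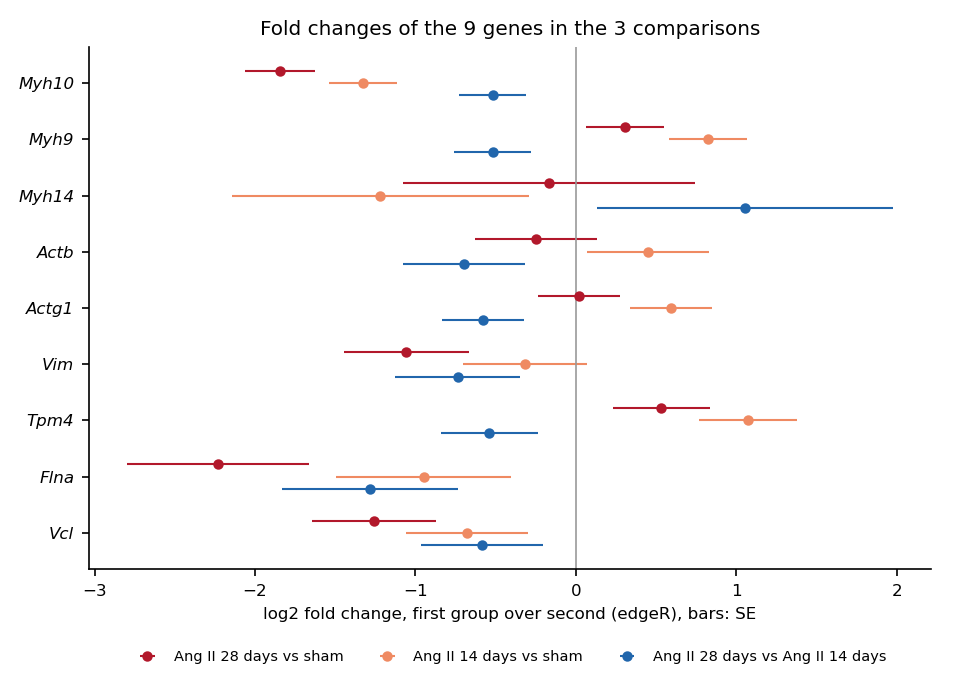
Log2 fold change of each of the 9 genes (x axis, first group over second, from edgeR) with its standard error, for 28 days against sham, 14 days against sham and 28 days against 14 days. Flna at -2.23 and Myh10 at -1.84 lie farthest below 0 at 28 days, and Tpm4 at 1.07 and Myh9 at 0.83 farthest above it at 14 days.

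Many actin cytoskeleton and smooth muscle genes are known targets of serum response factor, which binds a motif called the CArG box together with myocardin or the related Mrtf proteins. RefSeq windows on GRCm38.p6 were found for 8 of the 9 genes, all except Actb, and the 250 bases before each annotated start were searched on both strands. A CArG box with the full consensus (a pair of C, 6 A or T, a pair of G) was found in 2 of the 8 windows, those of Vcl and Actg1, and in 1.47% of all 32851 windows of that length. The windows are shown 5′ to 3′ for both of these and for Flna and Myh10, which had the largest negative log2 fold changes at 28 days and no match, with the CArG box in capitals.
Vcl (chr14:20929148-20929397, plus strand): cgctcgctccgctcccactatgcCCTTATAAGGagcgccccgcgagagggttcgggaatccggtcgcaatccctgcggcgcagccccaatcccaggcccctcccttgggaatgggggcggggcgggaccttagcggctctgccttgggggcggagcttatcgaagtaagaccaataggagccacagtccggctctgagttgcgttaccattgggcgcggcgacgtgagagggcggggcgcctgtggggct
Actg1 (chr11:120348496-120348745, minus strand): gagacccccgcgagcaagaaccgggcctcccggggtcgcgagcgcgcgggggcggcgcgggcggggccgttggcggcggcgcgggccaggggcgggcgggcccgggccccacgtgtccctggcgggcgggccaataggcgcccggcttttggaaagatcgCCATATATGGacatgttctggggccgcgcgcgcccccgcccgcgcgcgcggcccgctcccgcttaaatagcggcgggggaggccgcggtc
Flna (chrX:74246535-74246784, minus strand): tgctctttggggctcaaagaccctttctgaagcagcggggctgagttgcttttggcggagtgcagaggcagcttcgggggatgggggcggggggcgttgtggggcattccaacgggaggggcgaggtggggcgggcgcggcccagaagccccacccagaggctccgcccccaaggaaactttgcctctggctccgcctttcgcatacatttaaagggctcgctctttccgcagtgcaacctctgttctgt
Myh10 (chr11:68691665-68691914, plus strand): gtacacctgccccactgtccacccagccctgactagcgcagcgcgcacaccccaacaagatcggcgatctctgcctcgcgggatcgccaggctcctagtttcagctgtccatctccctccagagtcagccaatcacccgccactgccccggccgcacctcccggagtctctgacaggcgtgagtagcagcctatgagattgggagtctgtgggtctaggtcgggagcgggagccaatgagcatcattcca
The box began 227 bases before the start in Vcl and 90 bases before it in Actg1. Vcl had its lowest mean at 28 days, whereas the 28-day and sham libraries overlapped for Actg1. CCAAT was present in 6 of the 8 windows (33.8% of all windows, both strands) and GGGCGG in 5 (32.7%). The annotated Flna gene extends upstream of the start used for its window, and the annotated Vcl and Myh14 genes begin inside their windows. A match is a match of letters only, and its absence says nothing of more distant sites.

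The wider machinery was described through 6 lists with 74 genes beside the members, of which 73 were tested. In edgeR's test 0 of them passed in any comparison (0% of all genes). At 28 days against sham, DESeq2 called 16 lower and 2 higher, beside 2.66% and 4.03% of all genes. At 14 days against sham it called 0 lower and 11 higher, beside 4.2% and 8.27%. At 28 days against 14 days it called 2 lower (Wdr1 and Msn) and 0 higher, beside 0.182% and 0.608%. In edgeR at an unadjusted p under 0.05, 20 were lower and 5 higher at 28 days against sham (5.89% and 7.96% of all genes), 5 and 12 at 14 days against sham (10.4% and 13.1%), and 12 and 0 at 28 days against 14 days (2.27% and 3.86%). The median log2 fold change of the 73 was -0.14, 0.09 and -0.44 in these 3 comparisons, beside -0.08, -0.07 and -0.05 over all genes tested. Earlier results of these data were known when the lists were chosen, so nothing is read from these counts or from those of the single lists below.

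Myosin II is switched on by phosphorylation of its light chains. Of 15 genes for light chains, kinases and phosphatases, DESeq2 called 5 lower and 0 higher at 28 days against sham (2.66% and 4.03% of all genes), and 0 in either direction at 14 days against sham (4.2% and 8.27%); the medians were -0.19 and -0.15 log2. Myl6, the essential light chain shared by smooth muscle and non-muscle myosin, had 843, 549 and 653 CPM at 28 days, 1239, 933 and 1198 CPM at 14 days, and 2758, 1078 and 1740 CPM in sham. Its log2 fold change at 28 days was -1.45 ± 0.37 (edgeR adjusted p = 0.213). Myl9, a regulatory light chain enriched in smooth muscle, had a log2 fold change of -2.56 ± 0.72 at 28 days (edgeR adjusted p = 0.218). Chosen after its values were seen, Ppp1r12a, the targeting subunit of myosin phosphatase, was -1.72 ± 0.48 log2 at 28 days (edgeR adjusted p = 0.218). By sign alone, 10 of the 15 genes were lower and 5 higher at 28 days against sham. The light chains Myl12a and Myl12b, also chosen after their values were seen, were 0.163 ± 0.293 and 0.215 ± 0.22 log2 at 28 days. At 14 days against sham they were 0.579 ± 0.294 and 0.505 ± 0.221.

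All 20 genes of actin assembly and actin binding had a log2 fold change above 0 at 14 days against sham, where 6666 of all 14741 genes did. The lowest were close to 0, such as Gsn at 0.01 ± 0.43. Their median was 0.63, beside -0.07 over all genes, and DESeq2 called 5 higher and 0 lower (8.27% and 4.2% of all genes). At 28 days against sham the median was 0.19, beside -0.08, with 1 called higher and 0 lower (4.03% and 2.66%). Gsn, which severs filaments, had 2755, 1631 and 3051 CPM at 28 days, 2550, 912 and 2354 CPM at 14 days, and 1567, 2270 and 1937 CPM in sham. Tmsb4x, which holds actin monomers, was 0.17 ± 0.41 log2 at 14 days, and Cfl1, cofilin, 0.66 ± 0.30 log2 (edgeR adjusted p = 0.231). The 5 called by DESeq2 were Lcp1, Capg, Lasp1, Arpc3 and Actr3. Lcp1, a plastin of leukocytes that is also in the leukocyte marker list, had 162, 450 and 304 CPM at 28 days, 191, 985 and 482 CPM at 14 days, and 108, 32.5 and 61.6 CPM in sham. The 5 leukocyte markers had reads in every library and summed to 274 to 1358 CPM at 28 days, 339 to 1972 CPM at 14 days and 86.1 to 168 CPM in sham. Capg, a capping protein abundant in macrophages, reached 485 CPM in 14-day replicate 2, the library with 12980 CPM of macrophage markers. The part of leukocytes and macrophages in these values was not tested.

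Among 10 other tropomyosins, actinins, calponins and filamins, DESeq2 called 3 lower and 0 higher at 28 days (2.66% and 4.03% of all genes), and 0 lower and 1 higher at 14 days (4.2% and 8.27%; medians -0.59 and -0.51 log2). Actn4, an alpha-actinin of non-muscle cells, was -0.90 ± 0.35 log2 at 28 days (edgeR adjusted p = 0.299). Tpm1 was -0.63 ± 0.71 and Tpm2 -0.54 ± 0.89 log2. Tpm1 had 1926, 790 and 297 CPM at 28 days, 1357, 497 and 889 CPM at 14 days, and 2377, 792 and 1505 CPM in sham. Its 28-day libraries stood in the order of both the skeletal muscle and the contractile smooth muscle sums. The part of either tissue in Tpm1 was not tested. The gene called higher at 14 days was Tpm3, another tropomyosin with cytoplasmic isoforms, with 307, 369 and 341 CPM at 28 days, 320, 650 and 408 CPM at 14 days, and 225, 164 and 205 CPM in sham. Its groups did not overlap with sham at either time, as for Tpm4. Of 17 adhesion and membrane linker genes, 6 were called lower and 0 higher at 28 days (2.66% and 4.03% of all genes), and 0 lower and 3 higher at 14 days (4.2% and 8.27%; medians -0.52 and -0.41 log2). Tns1, a tensin, had 970, 512 and 658 CPM at 28 days, 1042, 321 and 856 CPM at 14 days, and 2548, 1032 and 1806 CPM in sham (log2 -1.33 ± 0.51 at 28 days, edgeR adjusted p = 0.301). Csrp1, a LIM protein of smooth muscle, was -1.66 ± 0.56 and Itgb1, the integrin beta1 chain, -0.79 ± 0.27 log2 (edgeR adjusted p = 0.254 and 0.256). Zyx, a partner of vinculin at adhesions chosen after its values were seen, had 214, 143 and 180 CPM at 28 days, 364, 325 and 340 CPM at 14 days, and 865, 264 and 595 CPM in sham.

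Of 8 tested intermediate filament and linker genes, DESeq2 called 1 higher (Lmnb1) and 1 lower (Krt18) at 28 days (4.03% and 2.66% of all genes), and 1 higher (Lmnb1) and 0 lower at 14 days (8.27% and 4.2%). Plec, the linker plectin, had log2 fold changes of -0.08 ± 0.22 at 28 days and 0.15 ± 0.22 at 14 days against sham, Lmna, a nuclear lamin, -0.74 ± 0.33 and -0.21 ± 0.33, and Des 1.84 ± 0.94 and 0.78 ± 0.92. Of 4 genes for serum response factor and its cofactors, DESeq2 called 1 lower (Myocd) and 0 higher at 28 days (2.66% and 4.03% of all genes). It called 0 lower and 1 higher (Mrtfa) at 14 days (4.2% and 8.27%). Srf had 80.0, 67.0 and 52.1 CPM at 28 days, 74.5, 56.1 and 88.7 CPM at 14 days, and 87.6, 51.2 and 78.8 CPM in sham, with overlapping groups. Its cofactor Mrtfa was 1.06 ± 0.32 log2 at 14 days (edgeR adjusted p = 0.128, called by DESeq2) and Mrtfb 0.06 ± 0.25. For Mrtfa these groups overlapped, with 14-day replicate 1 at 49.7 CPM and sham replicate 1 at 50.5 CPM. Myocd, the cofactor of differentiated smooth muscle, had 15.0, 4.59 and 6.15 CPM at 28 days, 48.2, 8.86 and 30.1 CPM at 14 days, and 89.7, 38.3 and 80.7 CPM in sham.

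**Figure D5:**
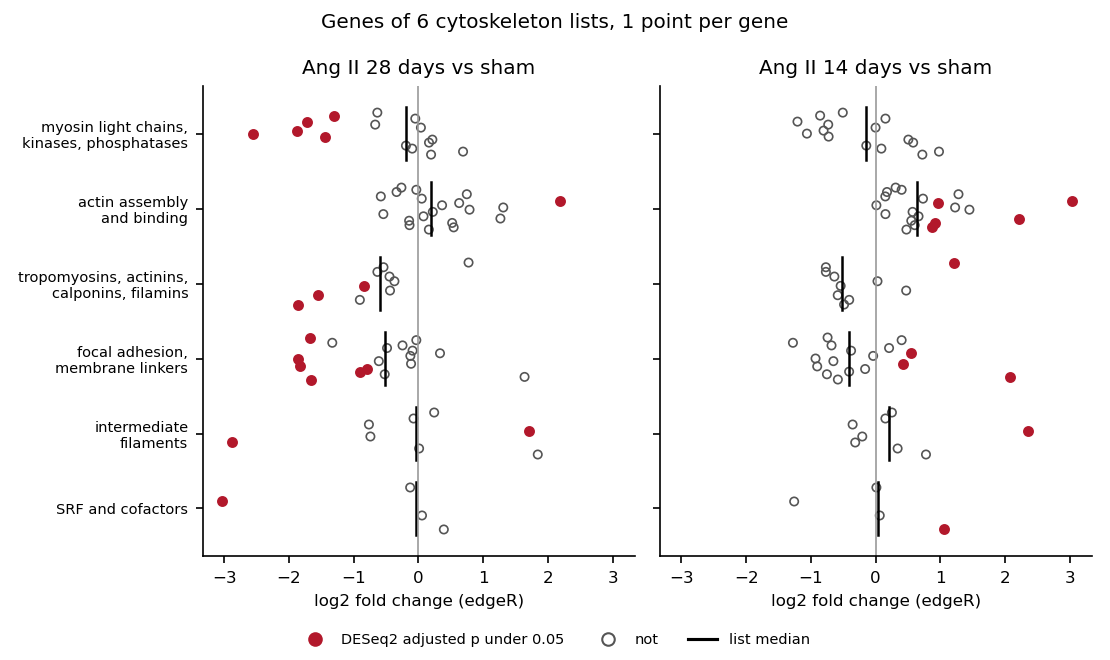
Log2 fold change (x axis, edgeR) of the tested genes of 6 cytoskeleton lists at 28 days against sham (left) and 14 days against sham (right), with 1 point per gene, filled where DESeq2's adjusted p was under 0.05, and a bar at the list median. The adhesion list has its median at -0.52 at 28 days, and the actin assembly list at 0.63 at 14 days.

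The genes whose pattern over the 9 libraries was most like that of Myh10 were Napepld, Scube3, Fbxo30, Endod1 and Rnf19a, with Pearson correlations of log2 CPM of 0.977, 0.963, 0.961, 0.960 and 0.955, out of 10732 genes with a mean of at least 10 CPM. Napepld, which encodes a phospholipase that makes acylethanolamides, had 19.5, 15.3 and 15.5 CPM at 28 days, 23.7, 14.6 and 19.3 CPM at 14 days, and 74.0, 38.2 and 65.3 CPM in sham. Fbxo30 had 25.1, 23.2 and 22.9 CPM at 28 days, 25.7, 22.5 and 26.8 CPM at 14 days, and 84.1, 44.0 and 90.8 CPM in sham. For Myh9 they were Mfap3, Stat6, Smn1, Ppp1r18 and Pelp1, with correlations of 0.976, 0.972, 0.971, 0.965 and 0.962. Stat6, a transcription factor of interleukin signalling, had 130, 126 and 108 CPM at 28 days, 125, 180 and 158 CPM at 14 days, and 111, 87.5 and 111 CPM in sham. The 9 points of each correlation share 3 groups of libraries, so these values rank likeness and are given without a test.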

How the data were processed

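RNA of mouse aortas was analysed in 9 libraries, each deposited as a file of expected counts by gene. Per the labels, libraries were made from 1.0 ug of total RNA with an MGIEasy mRNA kit. The tools listed, per the submitters' processing notes, are RSEM 1.3.1, Bowtie2 2.4.5 and HISAT2 2.2.1, and the build is GRCm38.p6; strandedness is not given in the sources used here. Expected counts share ambiguous reads between genes, so close paralogs such as the actins are uncertain. Counts were rounded, and 18775 of 18830 Entrez Gene IDs were matched to RefSeq symbols.

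After filterByExpr, 14741 genes were tested with edgeR 4.0.16 (TMM, robust glmQLFit, all 9 libraries, 1 coefficient per group), adjusted by the Benjamini-Hochberg method over all genes tested, with a threshold of 0.05. Each SE was taken as the absolute log2 fold change divided by the root of its F value. The biological coefficient of variation was 51.3%. Alternatives were DESeq2 1.42.0, limma 3.58.1 (voom), RLE factors, no filter, a filter at 5 CPM, a replicate block, fits of only the 2 groups compared and left-out libraries. The code was tested on simulated data. The labels do not say that replicates are separate animals, so p-values measure only the spread between these libraries. Exact permutation of 3 against 3 was not used, since it cannot pass the threshold. Exon lengths are the union of exons in the GENCODE annotation of GRCm38.

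The members and gene lists were chosen with earlier results of these data known. By rule the text names the 9 members, the 3 genes of each list with the highest mean CPM, Acta2, Myh11, Tagln and Des, and the 5 genes most correlated with Myh10 and with Myh9; other genes were named after their values were seen. Of the myosin light chain, kinase and phosphatase list, 1 gene that the rule names is not reported here. Tagln had a log2 fold change of -2.24 ± 0.72 at 28 days and -0.67 ± 0.69 at 14 days against sham. The other marker lists are given here as summed CPM: fibroblast 3122 to 6199 at 28 days, 3583 to 10770 at 14 days and 2021 to 3334 in sham, endothelial 868 to 1498, 600 to 1571 and 698 to 986, brown fat and adipocyte 2588 to 6478, 1297 to 3746 and 5257 to 9981, red cell and platelet 396 to 1286, 872 to 1995 and 307 to 372, and dividing cells 27.3 to 62.2, 39.2 to 158 and 8.87 to 14.2.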

Additional observations from a re-analysis of the deposited data

How the results depend on the processing

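edgeR called 0 genes in each comparison (2042, 3460 and 903 at an unadjusted p under 0.05 at 28 days against sham, 14 days against sham and 28 days against 14 days), limma-voom called 0 as well, and DESeq2 called 996 at 28 days against sham, 1902 at 14 days against sham and 126 at 28 days against 14 days, of which 3, 4 and 0 were members. At 14 days against sham, 1 gene was called with the replicate number as a block (Plac8), 1 with only the 2 groups compared and 1 without the 28-day libraries rich in skeletal muscle (Marco in both); the cause was not tested. With 1 library left out at a time, 0 to 7 genes and 0 to 1 members were called at 28 days against sham. Without sham replicate 2 these were 5 genes (Itgb3, Ccdc42, Fbxo30, Myh10 and Igsf9), and 7 genes were called without 28-day replicate 3. In the other 2 comparisons 0 genes were called. Myh10 was included for its p at 28 days against sham, and Fbxo30 was named for its likeness to Myh10. Nothing is therefore read from the calls of these genes.

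For Actb at 28 days against sham the log2 fold change ran from -0.52 to 0.14 with 1 library left out, and for Myh14 from -0.57 to 0.91. Myh14 was also reversed with limma-voom (0.12) and without the 3 nerve-rich libraries (0.62); the cause was not tested. Under the other settings run (18 in all), the other members kept their direction in each comparison. Myh10 ran from -2.04 to -1.69 at 28 days and from -1.58 to -1.17 at 14 days against sham. limma-voom and the settings without nerve-rich or skeletal muscle-rich libraries were chosen after seeing the data. Same-numbered libraries share only a number: the correlation of their deviations from the group means ran from -0.55 to 0.65 over 9 pairs, with 3 above 0.1, and the replicate block moved the calls at 14 days only, from 0 genes to 1. The planned fits to FPKM values were not run, since the files used here hold counts only.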
